A study of Mus musculus with 24 samples.

Results

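The genes described here are 40 genes of the cell cycle and of DNA replication, taken by name from a count table of 23337 genes and followed through 24 RNA-seq libraries of sorted mouse heart muscle cells (cardiomyocytes). By role, 22 act in mitosis, 8 in origin licensing, 4 in DNA synthesis and nucleotide supply, 3 at the G1/S entry point, and 3 are D-type cyclins. The study targeted members of a family of transcriptional coactivators of serum response factor, which are myocardin (Myocd) and its relatives Mrtfa and Mrtfb. It compared 4 groups of 6 libraries each. The control group (Ctrl) had the genotype Rosa-Cas9/Cas9 and received AAV-Cre, a virus that delivers the recombinase Cre. The MKO group had the same genotype and received AAV-Myocd-sgRNA, a virus that carries a guide RNA against Myocd. The DKO group was labelled Mrfta-/-; Mrtfb-F/F; Rosa-Cas9/Cas9 (Mrfta being the labels' spelling, read here as Mrtfa) and received AAV-Cre, and the TKO group had that genotype and received AAV-Myocd-sgRNA. All 4 groups therefore carried Cas9; virus was given on postnatal day 1 and the cells were collected at 4 weeks of age. The labels do not say which promoter drives each virus, whether the guide virus also carries Cre, or whether each library is a separate animal, so a p-value here speaks of the spread among libraries, which may be technical.

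A cell that divides first licenses its replication origins by loading the Mcm helicase, then copies its DNA, condenses and segregates its chromosomes in mitosis, and finally splits in cytokinesis. The genes of these steps are transcribed in waves: E2F factors drive the replication genes near the G1/S border, the DREAM complex keeps the mitotic genes off in resting cells through the cell cycle genes homology region (CHR) of their promoters, and B-Myb, FoxM1 and the CCAAT factor NF-Y drive them later in the cycle. Mouse cardiomyocytes leave the cell cycle within weeks of birth, and a last round of DNA synthesis without cytokinesis leaves most of them with more than 1 nucleus, so transcripts of these genes are scarce in the heart at this age and can also come from dividing cells of other types.

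Promoters of 5 of the genes are shown as examples. Cenpf and Cdc6 were the genes that passed the test, Mki67 and Top2a are mitotic genes whose levels followed each other closely, and Mcm5 is a replication gene. These 5 genes were chosen after their values were seen. The part of their promoters in their levels was not tested. Each sequence ends at the base before the start in the RefSeq promoter table and is read 5′ to 3′ on the gene's strand of GRCm38.p6. Capitals mark matches on either strand to the CHR letters TTTGAA or TTCGAA, to the CCAAT box letters CCAAT, and to the E2F letters TTCCCGC or TTGGCGC, where a CCAAT match (ATTGG read on the other strand) can overlap a TTGGCGC match. The Cenpf sequence is chr1:189688087-189688336 on the minus strand, Cdc6 is chr11:98907982-98908150 on the plus strand, Mki67 is chr7:135716380-135716629 on the minus strand, Top2a is chr11:99024190-99024439 on the minus strand and Mcm5 is chr8:75109259-75109508 on the plus strand. For Cdc6 only 169 bases are printed, because the other 81 of the window lie in an annotated Cdc6 exon; the count table's Cdc6 gene starts further upstream, at 98907889, so that by its model the printed stretch lies inside the gene.
Cenpf: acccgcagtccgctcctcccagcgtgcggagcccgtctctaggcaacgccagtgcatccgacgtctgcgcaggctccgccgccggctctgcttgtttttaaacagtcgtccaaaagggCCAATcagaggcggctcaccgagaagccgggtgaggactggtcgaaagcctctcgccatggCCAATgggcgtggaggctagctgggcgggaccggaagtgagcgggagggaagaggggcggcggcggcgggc
Cdc6: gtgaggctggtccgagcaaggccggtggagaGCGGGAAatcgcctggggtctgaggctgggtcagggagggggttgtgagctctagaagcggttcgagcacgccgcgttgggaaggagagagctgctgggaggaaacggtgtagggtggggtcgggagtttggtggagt
Mki67: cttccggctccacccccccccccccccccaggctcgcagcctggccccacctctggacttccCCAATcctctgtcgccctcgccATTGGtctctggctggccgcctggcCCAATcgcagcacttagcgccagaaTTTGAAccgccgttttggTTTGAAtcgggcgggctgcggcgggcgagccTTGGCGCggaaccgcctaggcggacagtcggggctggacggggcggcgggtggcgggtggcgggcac
Top2a: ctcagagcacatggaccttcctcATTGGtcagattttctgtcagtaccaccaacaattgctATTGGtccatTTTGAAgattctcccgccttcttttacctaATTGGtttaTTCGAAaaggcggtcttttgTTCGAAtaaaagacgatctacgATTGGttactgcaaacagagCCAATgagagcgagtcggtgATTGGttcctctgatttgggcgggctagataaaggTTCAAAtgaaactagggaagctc
Mcm5: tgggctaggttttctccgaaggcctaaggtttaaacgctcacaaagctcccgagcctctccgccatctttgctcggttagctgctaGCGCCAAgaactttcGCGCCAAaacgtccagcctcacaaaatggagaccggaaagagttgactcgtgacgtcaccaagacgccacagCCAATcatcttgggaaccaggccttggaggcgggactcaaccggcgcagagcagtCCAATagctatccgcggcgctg

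The Cenpf window held 2 CCAAT boxes and no CHR or E2F match. Mki67 held 2 CHR, 3 CCAAT and 1 E2F match, and Top2a held 4 CHR and 6 CCAAT matches. Mcm5 held 2 CCAAT and 2 E2F matches, and the printed stretch of Cdc6 held 1 E2F match. A RefSeq promoter entry was found for 32 of the 40 genes; Ccnd2, Kif20a, Tpx2, Ccne2, Ccna2, Mcm4, Aurkb and Ccnd1 had none. CCAAT boxes were in 24 of the 32 windows against 33.8% of all 32536 windows of the same 250 bases, CHR letters in 10 of 32 against 16.99%, and E2F letters in 8 of 32 against 5.65%. Among the mitotic genes 16 of 18 windows held a CCAAT box and 8 of 18 a CHR match; among the replication and G1/S genes with an entry, 5 of 13 held an E2F match. A match of letters is a description of the sequence and is not a binding site.

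The libraries held between 5830185 and 17184517 reads assigned to genes. Levels are given in CPM, which are counts scaled to the library size with the trimmed mean of M-values. Mkl1, the table's name for Mrtfa, lay at 7.74 ± 2.09 CPM in Ctrl (SD, n = 6) and at 1.995 ± 0.453 and 2.12 ± 0.535 CPM in DKO and TKO. Mkl2, its name for Mrtfb, lay at 33.0 ± 4.41 CPM in DKO and 35.5 ± 6.01 in TKO against 49.0 ± 4.04 in Ctrl. Myocd lay at 144 ± 24.1 CPM in MKO and 245 ± 55.1 in TKO, the groups given the guide virus, against 185 ± 27.6 in Ctrl and 209 ± 23.2 in DKO, and since a guide-directed cut can leave a transcript in place, this level does not check the editing. By Xist and Y-linked reads, male animals gave 4 of 6 libraries in both Ctrl and MKO, 1 of 6 in DKO and 3 of 6 in TKO. The 12 cardiomyocyte markers (such as Myh6 and Tnnt2) summed to 153389 to 189583 CPM in the Ctrl libraries and 139832 to 168995 in MKO. They summed to 126666 to 146600 CPM in DKO and 111547 to 139965 in TKO, so that every TKO library lay below every Ctrl library. The cause of this difference was not tested. The 4 red blood cell genes of the table summed to between 0.408 and 17.8 CPM, with Hba-a1 and Hba-a2 listed at 0 in all libraries.

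In the model of all 24 libraries, all 40 genes passed the filter on low counts, and most were low. Of the 960 gene-by-library values, 3 were 0, 9 were between 1 and 3 reads and 31 (3.23%) were under 10 reads; 19 genes had at least 10 reads in every library. The median count over the 24 libraries ran from 13 reads for Cdc6, the factor that loads the Mcm helicase, to 2255.5 for Ccnd2, which encodes cyclin D2. Per kilobase of transcript, the median levels of Ccnd3 (39.9 CPM per kb) and Ccnd2 (39.3) stood above those of Rrm2 (15.8), Mcm2 (11.1) and Rrm1 (10.9). The lowest on this scale were Cenpe (0.54), Ect2 (0.49) and Cdc6 (0.25). In Ctrl, Ccnd2 was higher per kilobase than 86.7% of the tested genes, Cenpf than 33.0%, Mki67 than 20.7% and Cdc6 than 3.97%. A 0 was seen for Bub1 and Ect2 in 1 DKO library, where 3 reads would be 0.599 CPM, and for Cdc6 in 1 TKO library, where 3 reads would be 0.285 CPM. These limits and counts cover counting error only.

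Before any group is compared, 2 libraries have to be named, because they were low for most of these genes: DKO replicate 1 (DKO 1) and TKO replicate 4 (TKO 4). DKO 1 was the shallowest library of the series, with 5830185 reads, where the next lowest, Ctrl 2, had 8017413. The part of depth in its levels was not tested. DKO 1 lay below the other 5 DKO libraries for 34 of the 40 genes, against 42.4% of all tested genes. All 22 mitotic genes were among them, at a median of 11.7% of the median of the other 5 libraries; Top2a, the topoisomerase that untangles chromosomes, had 1 read there against 15.3 to 41.1 CPM in the others. All 8 licensing genes were also lowest, at a median of 33.1%. The D-type cyclins went the other way, each above the other 5 libraries at 137% to 225% of their median, where 37.1% of all tested genes also lay above, and Pcna, the sliding clamp of the replication fork, was at 153%.

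TKO 4 lay below the other 5 TKO libraries for 31 of the 40 genes, against 24.5% of all tested genes. Of the mitotic genes 19 of 22 were lowest there, at a median over the 22 of 29.9%, and of the licensing genes 7 of 8, at a median over the 8 of 45.9%. Cenpf, which encodes the large kinetochore protein CENP-F, was not low in this library, at 112% of the median of the others. DKO 1 was the lowest of all 24 libraries for 23 genes and TKO 4 for 10, and for 20 genes they were the lowest and second lowest in that order. The main results below that rest on them are given with and without them.

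**Figure D1:**
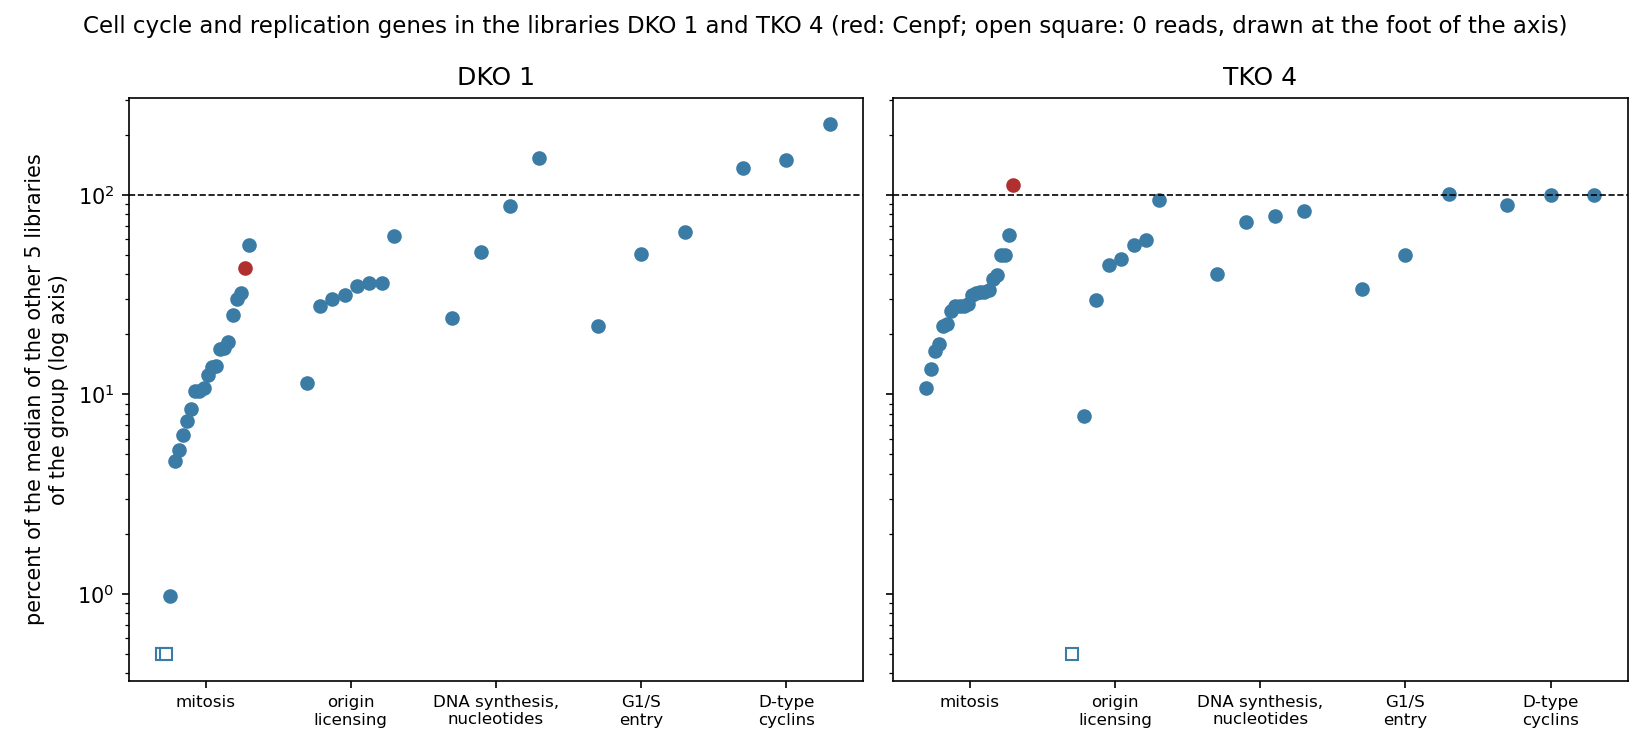
Level of each of the 40 genes in DKO 1 (left) and TKO 4 (right) as a percent of the median of the other 5 libraries of its group, on a log axis, by role; the dashed line is at 100%, Cenpf is red, and open squares are genes with 0 reads drawn at the foot of the axis. The mitotic genes lie at a median of 11.7% in DKO 1 and 29.9% in TKO 4, and the D-type cyclins lie above 100% in DKO 1.

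DKO 1 also stood apart in markers of other cells, low for some and high for one list. Its 12 fibroblast markers summed to 182 CPM, the lowest of any library, where Ctrl ran from 204 to 799, MKO from 478 to 1266, DKO from 182 to 828 and TKO from 358 to 454. Its 10 smooth muscle and pericyte markers (without Des, which cardiomyocytes also express) summed to 211 CPM against 490 to 874, 678 to 894, 211 to 663 and 432 to 700 in the 4 groups, and Cnn1 was at 0. Its 15 endothelial markers summed to 351 CPM, where the groups ran from 179 to 1882, 728 to 1555, 351 to 973 and 186 to 757. Its 13 leukocyte markers summed to 11.98 CPM with Ptprc, Tyrobp and Fcer1g at 0, within the 6.59 to 36.2 CPM of all libraries, and its red blood cell genes summed to 17.8 CPM, the highest of all libraries. TKO 4 was not low on these lists: it had 409 CPM of fibroblast, 757 of endothelial, 700 of smooth muscle and pericyte and 18.8 of leukocyte markers, the highest or within the range of its group. The part of such cells in the low mitotic levels was not tested, and in bulk libraries fewer cells of a type and less RNA per cell cannot be told apart.

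With all 3 coactivators targeted, 2 of the 40 genes fell against Ctrl and none rose: Cenpf and Cdc6. That is 5% of the genes, where 14.1% of all 12281 tested genes passed the same threshold, 8.14% higher and 5.98% lower. The test was the edgeR quasi-likelihood test, at a Benjamini-Hochberg adjusted p under 0.05 over all tested genes. Both called genes fell, and their 5% was near the 5.98% of all genes that were lower. The log2 ratio of TKO over Ctrl was below 0 for 37 of the 40 genes, against 51.3% of all genes, with a median of −0.39 against −0.01 for all genes. The standard errors of these ratios had a median of 0.38, about as large as the median ratio itself. Because the genes vary together from library to library, as described below, the count of 37 does not stand for 37 separate observations.

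The shift depended in size on single libraries. Without TKO 4 the median was −0.19 with 35 genes below 0, without Ctrl 2, which was high for several of these genes, −0.23 with 34 below 0, and without both DKO 1 and TKO 4 −0.19 with 35 below 0. Among the markers of other cells, the endothelial list had a median log2 ratio of −0.61 and the smooth muscle and pericyte list one of −0.61, with 0 of 15 and 0 of 10 lower by the test. Unlike the sums above, this smooth muscle and pericyte list included Des, and 10 of its 11 genes were tested. The leukocyte list went the other way, at 0.53 with 0 of its 8 tested genes called, and the 2 tested red blood cell genes had a median of −1.56 with 0 called. The fibroblast list had a median of −0.17, and 1 of its 11 tested genes and 1 smooth muscle and pericyte gene were higher. Of the 12 cardiomyocyte markers 5 were lower and 1 was higher. The part of these markers in the shift was not tested.

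Cenpf gave the clearest difference. Its gene lies on chr1 from 189640614 to 189688086 (mm10), and none of its exons overlap another gene. In Ctrl it was read at 40.8, 35.2, 22.01, 36.8, 38.6 and 40.9 CPM, and in TKO at 14.9, 14.7, 13.8, 16.7, 26.05 and 25.3 CPM, from 157 to 304 reads a library. All 6 TKO libraries lay below the Ctrl mean of 35.7 ± 7.08 CPM (SD, n = 6), but Ctrl 3 lay below TKO 5 and TKO 6, so that the groups overlapped.

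In MKO the Cenpf values were 35.0, 30.8, 38.7, 26.9, 26.24 and 27.5 CPM, all above every TKO library. In DKO they were 17.2, 34.4, 37.7, 45.8, 47.0 and 40.2 CPM, with the low value in DKO 1. Cenpf fell in TKO by 0.95 ± 0.20 on the log2 scale against Ctrl (estimate and standard error; edgeR adjusted p = 0.00222, and 3.24e-05 to 0.00728 over 32 alternative analyses). It fell by 1.01 ± 0.20 against DKO (edgeR adjusted p = 0.00284, range 4.76e-05 to 0.0311) and by 0.73 ± 0.20 against MKO (edgeR adjusted p = 0.0178, range 0.00129 to 0.049). Without DKO 1 and TKO 4 the ratios were −0.92, −1.11 and −0.70. The comparisons share the TKO libraries, so these are not 3 independent results.

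Cdc6 is the ATPase that brings the Mcm helicase to the origin; its gene lies on chr11 from 98907889 to 98923942 (mm10). It was close to the detection floor: Ctrl had 16, 22, 9, 12, 8 and 11 reads and TKO had 8, 6, 8, 0, 7 and 10. In CPM the TKO mean was 0.518 ± 0.28 (SD, n = 6), against 1.47 ± 0.712 for Ctrl, 1.66 ± 1.12 for MKO and 1.69 ± 0.751 for DKO. The highest TKO library, at 0.83 CPM, lay just above the lowest Ctrl library, at 0.81 CPM, and above MKO 3 (0.40) and DKO 1 (0.60).

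The Cdc6 ratio of TKO over Ctrl was −1.46 ± 0.49 (edgeR adjusted p = 0.0465), close to the threshold: it passed in 13 of 31 alternatives, with adjusted p from 0.0148 to 0.115. Without TKO 4, the library with 0 reads, it was −1.22 ± 0.45 (edgeR adjusted p = 0.0821), without Ctrl 2 −1.20 ± 0.50 (0.115), and with both DKO 1 and TKO 4 left out −1.22 ± 0.43 (0.0469). Against DKO it was −1.72 ± 0.47 (edgeR adjusted p = 0.0298; passed in 28 of 31 alternatives, not without TKO 4, at 0.0557, TKO 3, at 0.0533, or DKO 6, at 0.076). Against MKO it was −1.64 ± 0.47 (edgeR adjusted p = 0.0235, passed in 30 of 31, not without MKO 6, at 0.0911). The alternative missing from each of these counts was the model with only the compared groups. There Cdc6 did not pass the filter on low counts and was not tested, so its tests rest on models with all 4 groups.

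**Figure D2:**
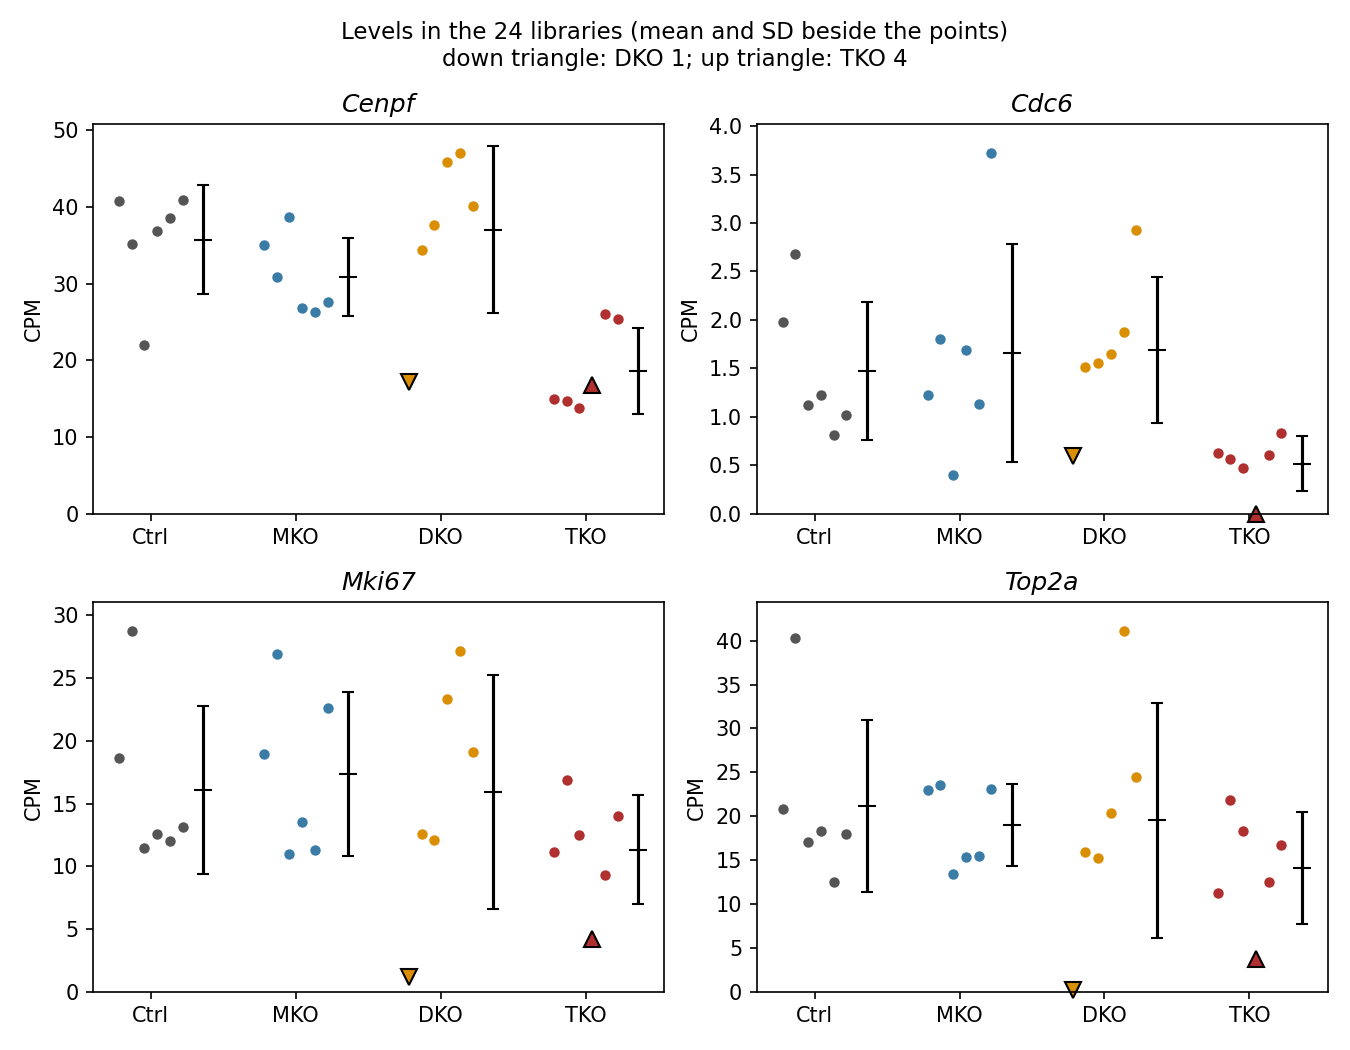
Level in CPM of Cenpf, Cdc6, Mki67 and Top2a in each of the 24 libraries by group, with the group mean and SD beside the points; the downward triangle is DKO 1 and the upward triangle TKO 4. The TKO libraries lie between 13.8 and 26.05 CPM for Cenpf, below all MKO libraries, while for Mki67 and Top2a the groups overlap and the 2 triangles are the lowest points.

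None of the other 21 mitotic genes passed the test in TKO against Ctrl, although all 22 had a ratio below 0 (median −0.40). With TKO 4 left out, 20 of the 22 were below 0, with a median of −0.19, and likewise 20 without Ctrl 2. Mki67, the proliferation marker that coats mitotic chromosomes, was read at 18.6, 28.7, 11.4, 12.6, 12.01 and 13.1 CPM in Ctrl and at 11.1, 16.9, 12.5, 4.18, 9.32 and 14.004 in TKO. The groups overlapped over most of their range, and the ratio of −0.50 ± 0.39 had a 95% interval from −1.27 to 0.27 (edgeR adjusted p = 0.445); without TKO 4 it was −0.33 ± 0.39. Top2a was read at 20.8, 40.3, 17.04, 18.3, 12.5 and 18.02 CPM in Ctrl and at 11.3, 21.9, 18.3, 3.71, 12.5 and 16.8 in TKO, a ratio of −0.58 ± 0.44 (edgeR adjusted p = 0.43), or −0.39 ± 0.43 without TKO 4. The intervals leave room for differences from none to more than that of Cenpf.

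Among the mitotic kinases and cyclins, which drive entry into mitosis, the ratios of TKO over Ctrl had a median of −0.26. They ran from −0.40 ± 0.42 for Aurkb, the kinase of the chromosomal passenger complex, to −0.11 ± 0.36 for Ccnb1, cyclin B1; the mitotic kinase Cdk1 was at −0.26 ± 0.38 and Plk1 at −0.13 ± 0.43. The reads behind them were few: Aurkb had 20 to 52 reads in Ctrl and 4 to 60 in TKO. Ccna2, cyclin A2, had a ratio of −0.35 ± 0.38, with 378 of its 2811 exonic bases shared with Exosc9 on the other strand; the library kit does not mark strand, so reads there cannot be assigned.

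The genes of the spindle checkpoint and of anaphase had a median ratio of −0.41. Bub1b, which encodes the checkpoint kinase BubR1, was read at 7.12 to 22.2 CPM (median 10.7) in Ctrl and 3.75 to 9.68 (median 7.81) in TKO, with a ratio of −0.75 ± 0.38 (edgeR adjusted p = 0.206). Cdc20, the activator of the anaphase-promoting complex, was at −0.41 ± 0.44 and the checkpoint kinase Bub1 at −0.30 ± 0.44. The spindle motors and midzone genes also had a median of −0.41, from −0.71 ± 0.42 for the spindle assembly factor Tpx2 to −0.23 ± 0.38 for the midzone bundler Prc1, with the motor Kif11 at −0.41 ± 0.38 and Kif23 at −0.54 ± 0.42. Kif20a, at −0.25 ± 0.34, shares 1115 exonic bases with Cdc23 and 187 with Brd8.

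The other chromosome and kinetochore genes lay between −0.62 ± 0.43 for the kinetochore motor Cenpe and −0.30 ± 0.43 for Birc5, which encodes survivin. The 2 cytokinesis genes were Ect2, the exchange factor that sets the cleavage furrow, at −0.79 ± 0.50 with 2 to 33 reads in TKO, and the furrow scaffold Anln at −0.43 ± 0.41. Aurka, the centrosomal kinase, was at −0.33 ± 0.34 and Ccnb2 at −0.20 ± 0.38. Without TKO 4 the medians by role moved toward 0: −0.09 for the kinases and cyclins, −0.19 for the checkpoint and anaphase genes, −0.23 for the spindle and midzone genes, −0.39 for the chromosome and kinetochore genes and −0.40 for the cytokinesis genes.

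**Figure D3:**
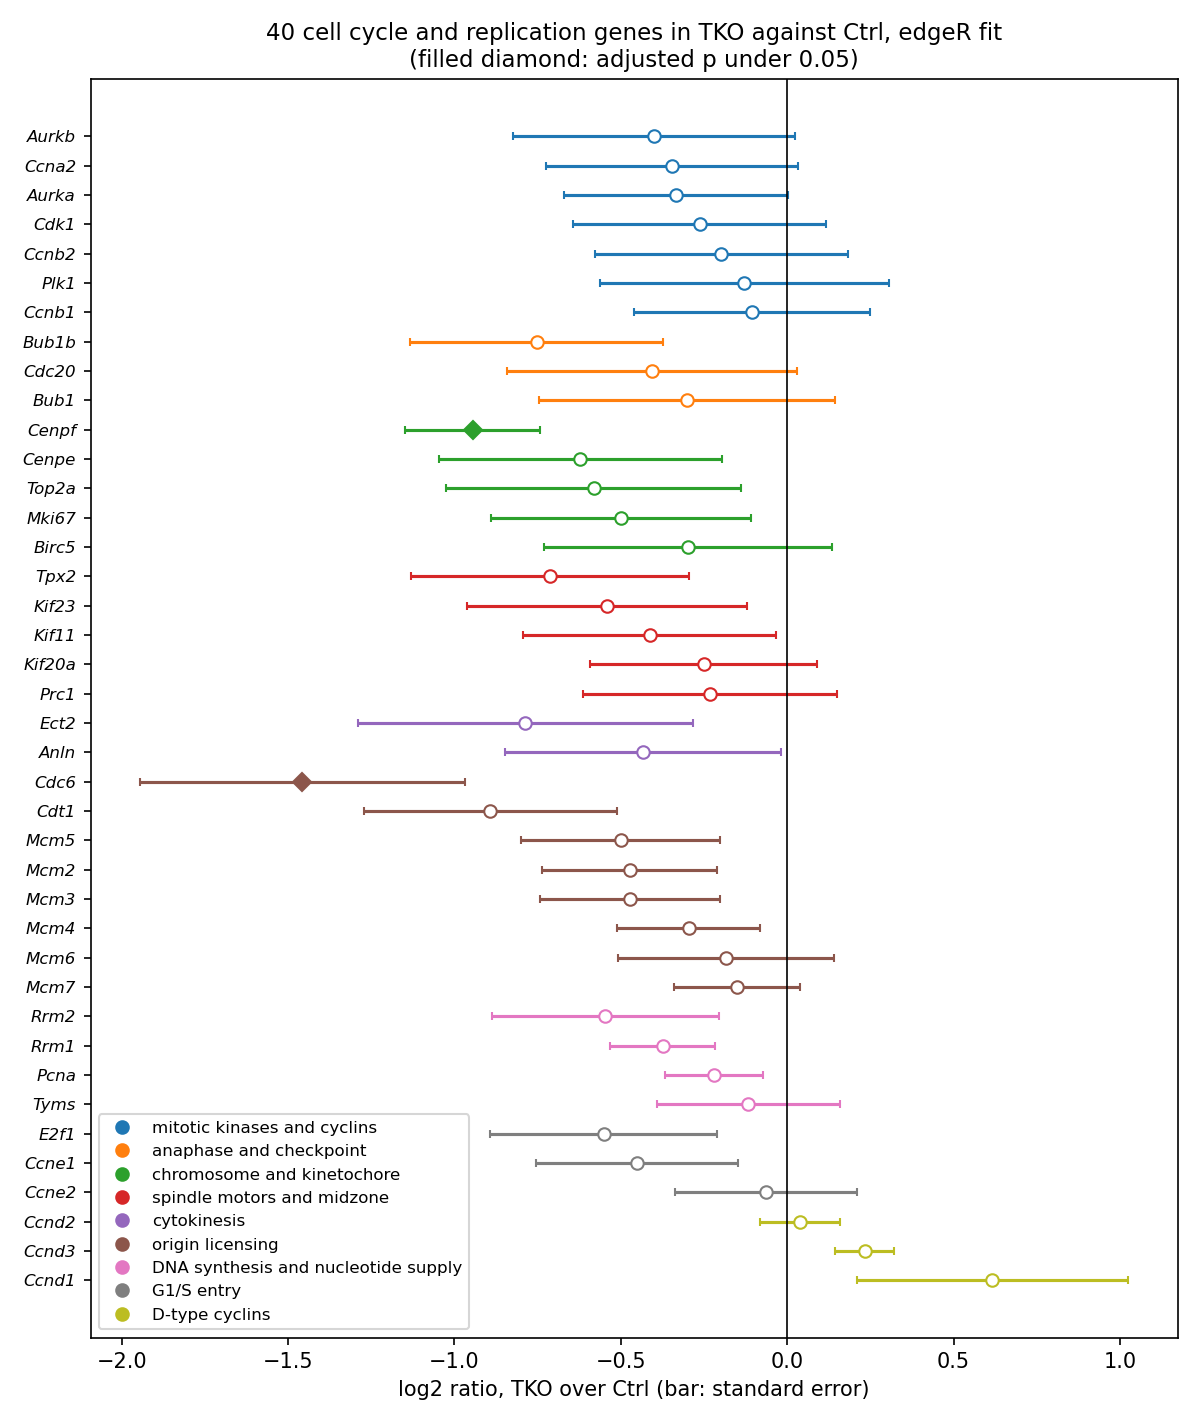
The log2 ratio of TKO over Ctrl with its standard error for each of the 40 genes, ordered by role and coloured by role; filled diamonds passed adjusted p under 0.05. All but the 3 D-type cyclins lie left of 0, only Cenpf (−0.95) and Cdc6 (−1.46) are filled, and most other bars reach or come close to 0.

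Of the origin licensing genes, Cdc6 was the one that passed; all 8 had a ratio below 0 in TKO against Ctrl (median −0.47, or −0.32 without TKO 4). Cdt1, the partner of Cdc6 in loading the helicase, was read at 8.14, 7.31, 7.34, 3.58, 4.38 and 2.96 CPM in Ctrl and at 3.94, 3.66, 3.05, 0.285, 2.44 and 4.50 in TKO, where 0.285 stands for 3 reads in TKO 4. Its ratio was −0.89 ± 0.38 against Ctrl (edgeR adjusted p = 0.124) and −0.94 ± 0.38 against DKO (0.134), and without TKO 4 it was −0.66 ± 0.31 and −0.71 ± 0.31. The 6 subunits of the Mcm helicase ran from −0.50 ± 0.30 for Mcm5 to −0.15 ± 0.19 for Mcm7, with Mcm2 at −0.47 ± 0.26 and Mcm3 at −0.47 ± 0.27. Mcm2 was the highest of them, at 41.3 ± 9.11 CPM in Ctrl and 29.6 ± 12.4 in TKO.

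The genes of DNA synthesis and nucleotide supply had a median ratio of −0.30, or −0.25 without TKO 4. Rrm1, the large subunit of ribonucleotide reductase, was among the best-read members: 49.96, 47.0, 43.3, 42.1, 48.1 and 45.9 CPM in Ctrl against 30.9, 32.8, 35.0, 29.0, 34.8 and 50.8 in TKO. Of the TKO libraries 5 lay below every Ctrl library and TKO 6 above them all. The ratio was −0.37 ± 0.16 (edgeR adjusted p = 0.119); it passed in 4 of 32 alternatives, among them without TKO 6 (−0.50 ± 0.15, 0.0292) and without DKO 1 (−0.38 ± 0.12, 0.0244). Against MKO it was −0.40 ± 0.16 (edgeR adjusted p = 0.0896; passed in 5 of 32). Rrm2, the small subunit, was at −0.55 ± 0.34, Pcna at −0.22 ± 0.15 and Tyms, which makes thymidylate, at −0.12 ± 0.28.

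At the G1/S border, E2f1, the transcription factor that turns on replication genes, had a ratio of −0.55 ± 0.34 and Ccne1, cyclin E1, one of −0.45 ± 0.30. Ccne2, cyclin E2, was at −0.06 ± 0.27, with 1734 of its 3217 exonic bases shared with Ints8. None of the 3 passed, and their median of −0.45 was −0.29 without TKO 4.

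The D-type cyclins, which couple growth signals to Cdk4 and Cdk6, were the 3 genes with a ratio above 0. Ccnd3 was read at 86.2, 92.2, 87.6, 74.7, 85.0 and 80.3 CPM in Ctrl and at 108, 91.8, 96.6, 90.2, 101 and 107 in TKO, so that all 6 TKO libraries lay above the Ctrl mean of 84.3 ± 6.08. Its ratio was 0.23 ± 0.09 (edgeR adjusted p = 0.0801); without DKO 1 it passed at 0.0147, and it passed in 5 of 32 alternatives. Ccnd3 shares 358 exonic bases with Bysl. Ccnd2 was level, at 230 ± 32.6 CPM in Ctrl and 237 ± 28.5 in TKO (ratio 0.04 ± 0.12, 95% interval −0.20 to 0.28).

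Ccnd1, cyclin D1, was read at 4.69, 12.5, 1.12, 3.17, 2.75 and 3.42 CPM in Ctrl and at 7.88, 8.35, 8.91, 7.89, 4.97 and 4.08 in TKO. One Ctrl library stood far above the other 5. The ratio was 0.62 ± 0.41 (edgeR adjusted p = 0.351), and without Ctrl 2 it was 1.21 ± 0.36 (0.0266). Ctrl 2 decides this value.

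Against DKO and against MKO, the 2 genes that fell in TKO were again Cenpf and Cdc6, and none rose. All tested genes passed at 6.38% in TKO against DKO (4.16% higher, 2.22% lower) and at 13.3% in TKO against MKO (6.48% higher, 6.86% lower). The ratio was below 0 for 38 of the 40 genes against DKO, where it was below 0 for 55.7% of all genes, with a median of −0.41. Against MKO it was below 0 for 36, where it was for 50.2% of all genes, with a median of −0.35. Single libraries moved these values. Against DKO they were 34 genes and −0.25 without TKO 4, 29 genes and −0.20 without DKO 5, the library with the highest mitotic sum, and 37 genes and −0.56 without DKO 1. Against MKO they were 32 genes and −0.24 without TKO 4 and 31 genes and −0.21 without MKO 6. Cenpf was the one gene of the 40 whose TKO libraries all lay below the MKO libraries; 5.06% of all tested genes were lower in TKO than in MKO in this way.

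Markers of other cells also differed between TKO and MKO: 2 of 11 tested fibroblast, 6 of 15 endothelial and 7 of 10 tested smooth muscle and pericyte markers (Des included) were lower by the same test, while 1 of the last list was higher. Against DKO none of these was lower and 1 smooth muscle and pericyte marker was higher. Their part in the ratios of the 40 genes was not tested.

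Targeting Myocd alone, or Mrtfa and Mrtfb alone, called none of the 40 genes. In MKO against Ctrl edgeR called 0 of all tested genes too (0%), with 762 (6.2%) at an unadjusted p under 0.05 and 1 of the 40 there, Ccnd1 (0.86 ± 0.41, edgeR adjusted p = 0.772). In DKO against Ctrl 0.635% of all genes passed, and none of the 40 reached an unadjusted p under 0.05, against 10.5% of all genes. The median ratio of the 40 was 0.01 in both comparisons, with 19 genes below 0 in each, where 50% and 45.1% of all genes were, and single libraries moved both counts in either direction. In MKO it was 11 genes (median 0.13) without Ctrl 2 and 34 (−0.15) without MKO 6. In DKO it was 5 genes (median 0.14) without DKO 1, 7 (0.14) without Ctrl 2 and 31 (−0.20) without DKO 5. Cenpf was at −0.21 ± 0.20 in MKO and 0.06 ± 0.20 in DKO against Ctrl. DKO against MKO called 0 of the 40, where 0.79% of all genes passed; 0 of the 40 and 15.3% of all genes had an unadjusted p under 0.05.

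Whether the Myocd guide virus, given in place of AAV-Cre, acted differently on an Mrtf-mutant background was tested as an interaction. This is the ratio of TKO over DKO minus that of MKO over Ctrl on the log2 scale. None of the 40 passed, where 0.464% of all genes did; 2 of the 40 and 12.4% of all genes had an unadjusted p under 0.05. These 2 were Cenpf (−0.79 ± 0.28, edgeR adjusted p = 0.237, range over alternatives 0.0501 to 0.372) and Cdc6 (−1.90 ± 0.65, edgeR adjusted p = 0.213). Without DKO 1 and TKO 4 they were at −0.88 ± 0.25 (edgeR adjusted p = 0.0686) and −1.77 ± 0.56 (0.0962). The calls of Cenpf and Cdc6 in TKO against DKO, and their absence in MKO against Ctrl, are therefore not shown to differ at this threshold.

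Summed over the mitotic genes, the libraries of each group ranged more widely than the means of the groups. The 22 mitotic genes of the Ctrl libraries summed to 288, 403, 210, 264.5, 191 and 219 CPM and those of the TKO libraries to 160, 259, 240, 79.1, 162 and 237. The MKO sums were 301.5, 319, 186, 176.5, 175 and 317 CPM and the DKO sums 45.7, 202, 172, 275, 490 and 325. The DKO group alone spanned the range from the lowest to the highest of all 24 libraries. The licensing genes summed to 107 ± 34.1 CPM in TKO (SD, n = 6), where the Ctrl sum was 140 ± 31.8, the MKO sum 145 ± 39.3 and the DKO sum 141 ± 49.98. The D-type cyclins summed to 283 to 366 CPM in the Ctrl libraries and 293 to 379 in those of TKO, with DKO 1 the highest of all libraries at 432.

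**Figure D4:**
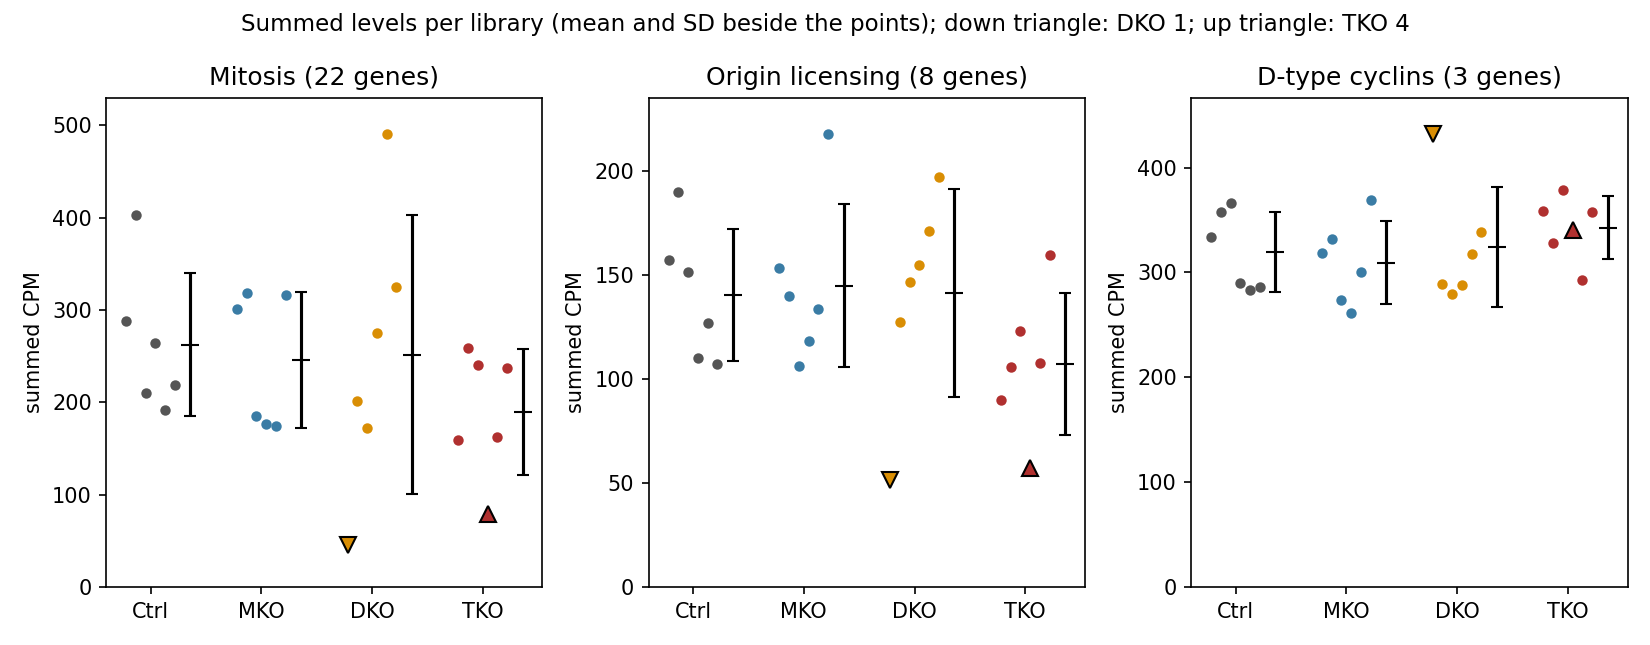
Summed CPM per library of the 22 mitotic, 8 licensing and 3 D-type cyclin genes, by group, with the mean and SD beside the points; the downward triangle is DKO 1 and the upward triangle TKO 4. DKO 1 (45.7) and TKO 4 (79.1) are lowest for the mitotic sum, DKO 1 is highest for the D-type cyclins, and all groups overlap.

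The genes rose and fell together from library to library. Over the 24 libraries, on log2(CPM + 0.5), the 21 other mitotic genes had a median Pearson's r of 0.905 with Mki67, from 0.511 for Cenpf to 0.963 for Top2a. All 21 passed a permutation test of r (adjusted p at most 0.0124, over a family of 49 relations, 100000 permutations, whose smallest possible p is 1e-05). For Top2a, r was 0.963 and Spearman's rho 0.919 (permutation test, adjusted p = 2e-05 for r); without DKO 1 and TKO 4, the libraries farthest from the median of Mki67, r was 0.887. For Cenpf, r was 0.511 and rho 0.476 (permutation test, adjusted p = 0.0124 and 0.0264), and without those libraries r was 0.351, the lowest of the mitotic genes. The median within groups over the 21 genes was 0.922.

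The licensing genes followed Mki67 at a median r of 0.782 (0.689 without the same 2 libraries), with all 8 past the permutation test. E2f1 had r = 0.856 and rho = 0.823, and r = 0.805 without the 2 libraries. Pcna had r = −0.0643 and rho = 0.324, which passed for neither, and r was 0.388 without the 2 libraries. The D-type cyclins did not pass, with r of 0.0299 for Ccnd1, −0.221 for Ccnd2 and −0.403 for Ccnd3; for Ccnd1 it was 0.556 without the 2 libraries. The points share their library, its depth and its mix of cells, so these are relations among libraries and not among cells.

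**Figure D5:**
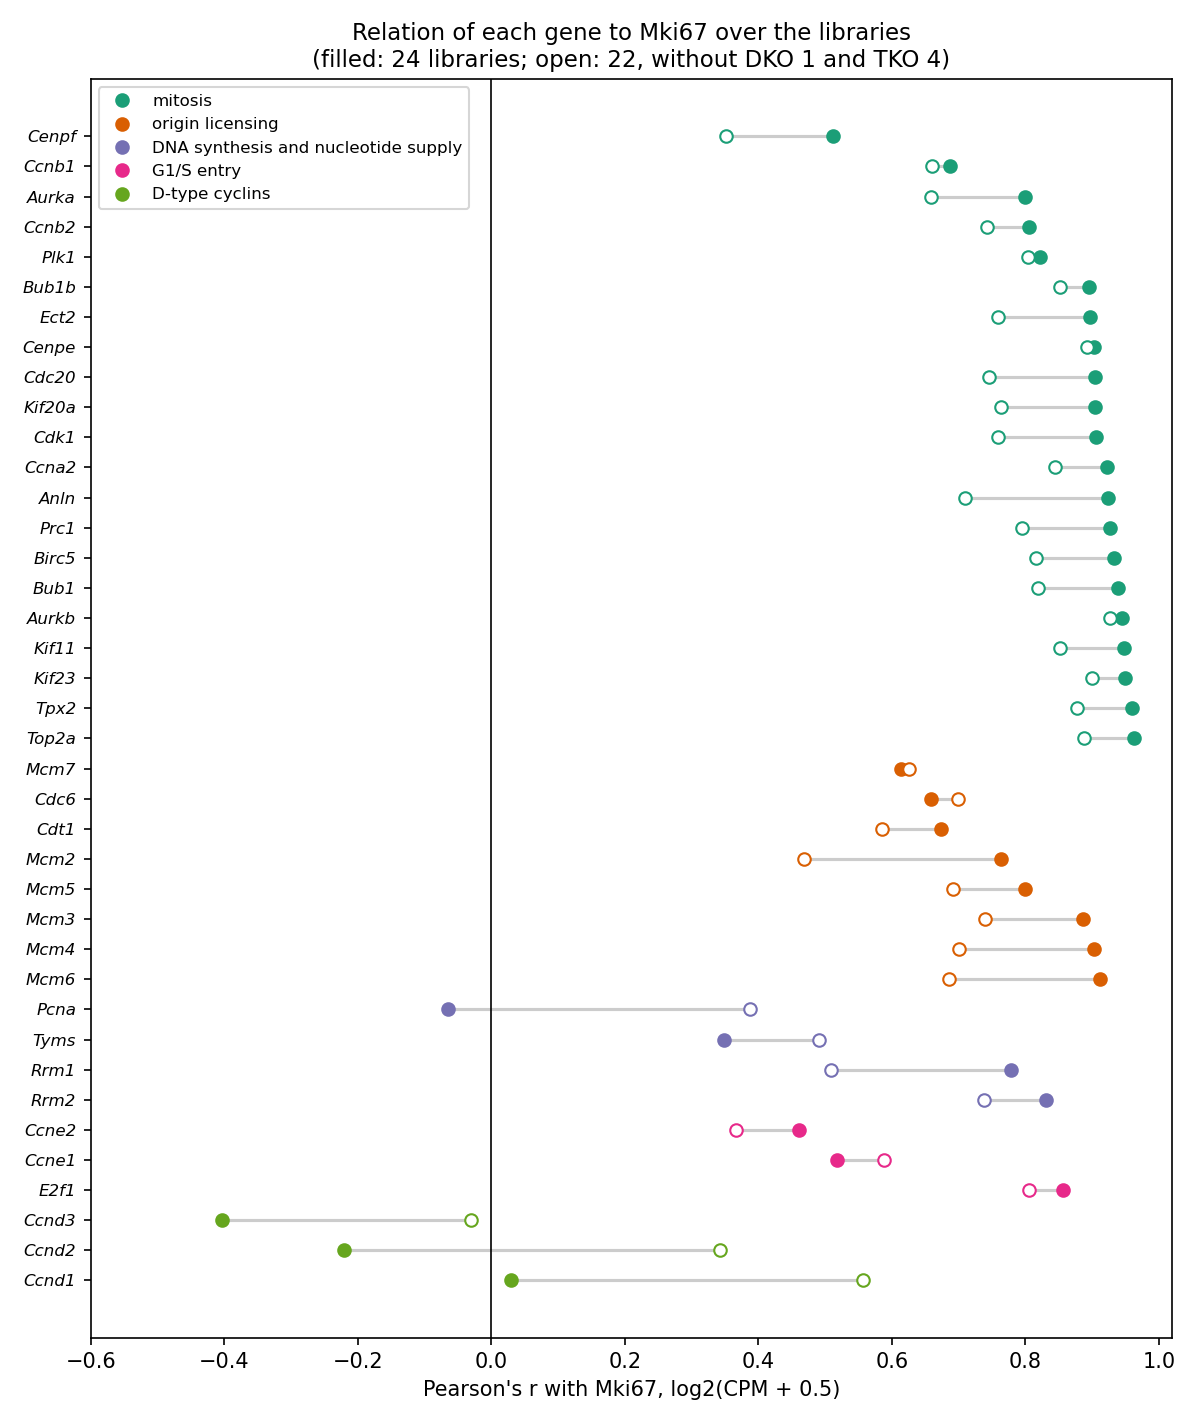
Pearson's r of each gene with Mki67 on log2(CPM + 0.5), over the 24 libraries (filled) and over 22 without DKO 1 and TKO 4 (open), ordered and coloured by role. Cenpf (0.511) and Ccnb1 (0.687) are the lowest of the mitotic genes, the others lie between 0.80 and 0.963, and the D-type cyclins lie at or left of 0.0299 over all libraries.

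Over all libraries, some markers of other cells moved with Mki67. The summed fibroblast markers had r = 0.657 and rho = 0.534 with Mki67 (permutation test, adjusted p = 0.000964 and 0.0114; r = 0.558 without DKO 1 and TKO 4). For the smooth muscle and pericyte markers without Des r was 0.648 and rho 0.410 (adjusted p = 0.00667 and 0.0599; r = 0.424), and for the endothelial markers 0.431 and 0.497 (adjusted p = 0.0476 and 0.019; r = 0.566). For the leukocyte sum r was 0.244 (adjusted p = 0.277) and for the cardiomyocyte sum 0.196 (0.394). Within the 6 libraries of a group these relations differed. In TKO r was −0.812 for the smooth muscle and pericyte sum, −0.473 for the endothelial sum and 0.0474 for the fibroblast sum, where the DKO values were 0.952, 0.848 and 0.94. TKO 4 had the lowest Mki67 of its group and its highest smooth muscle and pericyte and endothelial sums. DKO 1 had the lowest Mki67 of its group and its lowest fibroblast, smooth muscle and pericyte and endothelial sums. Single libraries can therefore weigh heavily on these values, which were not computed without them. For the cardiomyocyte sum r was −0.888 within Ctrl and −0.918 within MKO but 0.276 within DKO and 0.403 within TKO. These are descriptions over 6 points each, and their differences were not tested. For Ccnd1, r was 0.567 with the endothelial sum and −0.534 with the cardiomyocyte sum (permutation test, adjusted p = 0.00537 and 0.00952). Without Ctrl 3 and MKO 6, the libraries farthest from the median of Ccnd1, these were 0.340 and −0.472. Its r with the fibroblast, smooth muscle and pericyte (without Des) and leukocyte sums did not pass (adjusted p = 0.201, 0.935 and 0.089). Which cells carried the mitotic or the Ccnd1 transcripts was not tested.

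Other cell cycle genes were taken from 5 lists fixed by function and set beside these 40. None of them was called in MKO against Ctrl, DKO against Ctrl, DKO against MKO or the interaction. In TKO against Ctrl, 1 rose and none fell of 8 tested CDK inhibitors and pocket proteins, 0 rose and 1 fell of 11 CDKs and other cyclins, 1 rose and 1 fell of 19 E2F, DREAM and mitotic transcription factors, 0 rose and 1 fell of 42 genes of licensing, the fork and nucleotide supply, and 1 rose and 1 fell of 39 genes of the spindle, checkpoint and cytokinesis. These shares, like that of the 40 genes, are to be read against the 14.1% of all genes. In TKO against DKO, where 6.38% of all genes passed, 1 of the 11 CDKs and other cyclins and 1 of the 42 replication genes fell. The remaining lists had none called there. In TKO against MKO 13.3% of all genes passed. There 1 rose and 1 fell of the 8, 2 fell of the 11, and 1 rose and 1 fell of the 19. Of the 42 1 rose, and of the 39 2 rose.

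The gene that rose among the inhibitors was Cdkn1a, which encodes p21, an inhibitor of cyclin-dependent kinases: 49.0 ± 17.3 CPM in Ctrl and 112 ± 42.7 in TKO (1.19 ± 0.28, edgeR adjusted p = 0.00432). It also rose against MKO (0.89 ± 0.27, edgeR adjusted p = 0.0328, passed in 25 of 32 alternatives), where Cdkn1c, encoding p57, fell by 1.06 ± 0.34 (0.0384, passed in 23 of 32). Wee1, the kinase that holds Cdk1 inactive, was at 19.7 to 27.8 CPM in the TKO libraries. The ranges were 32.0 to 50.8 in Ctrl, 27.9 to 41.0 in MKO and 31.4 to 39.6 in DKO. The gap to MKO was narrow, and 5.06% of all tested genes had every TKO library below every MKO library. Wee1 fell by 0.76 ± 0.12 against Ctrl (edgeR adjusted p = 5.28e-05), by 0.55 ± 0.12 against DKO (0.00388) and by 0.48 ± 0.11 against MKO (0.00674), in all 32 alternatives of each.

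Of the transcription factors, Myc rose from 4.66 ± 1.46 CPM in Ctrl to 10.4 ± 1.73 in TKO (1.15 ± 0.26, edgeR adjusted p = 0.0032), and Lin9, a subunit of the DREAM core, fell by 0.63 ± 0.16 (0.011). Against MKO, Myc rose by 0.75 ± 0.25 (edgeR adjusted p = 0.0472, passed in 16 of 32 alternatives) and Mycn fell by 1.75 ± 0.43 (0.00892). Of the replication genes, Rfc4, a subunit of the clamp loader, fell against Ctrl by 0.49 ± 0.16 (edgeR adjusted p = 0.0384, passed in 20 of 32), Dut, which removes deoxyuridine triphosphate, fell against DKO by 0.57 ± 0.14 (0.0162, passed in 31 of 32), and Orc2, of the origin recognition complex, rose against MKO by 0.30 ± 0.10 (0.0463, passed in 19 of 32). Of the spindle and chromosome genes, the checkpoint gene Mad1l1 rose against Ctrl by 0.47 ± 0.13 (edgeR adjusted p = 0.0126) and against MKO by 0.44 ± 0.12 (0.0201, passed in 31 of 32). The condensin subunit Ncapd2 fell against Ctrl by 0.51 ± 0.16 (edgeR adjusted p = 0.0316, passed in 27 of 32). Cenpa, the histone of the centromere, rose against MKO by 0.60 ± 0.13 (edgeR adjusted p = 0.00279), and Cdk2 fell there by 0.43 ± 0.14 (0.0414, passed in 21 of 32).

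The authors' deposited tables give adjusted p-values for the same pairs of groups. In the authors' deposited table for TKO against Ctrl, 4 of the 40 genes were under 0.05 where 15.8% of all genes were: Cenpf at a log2 ratio of −1.06 ± 0.18, Cdc6 at −1.56 ± 0.50, Rrm1 at −0.40 and Ccnd3 at 0.24. In the authors' deposited table for TKO against DKO, where 11.5% of all genes were under 0.05, 5 were lower: Cenpf (−1.14), Mcm3 (−0.59), Mcm4 (−0.50), Cdc6 (−1.86) and Cdt1 (−1.09). In the authors' deposited table for TKO against MKO, where 20.8% were under 0.05, 4 were lower: Bub1b (−0.72), Cenpf (−0.73), Cdc6 (−1.66) and Rrm1 (−0.40). The authors' deposited table for DKO against MKO (3.69% of all genes) had 1, Cenpf, higher in DKO at 0.41, and the authors' deposited tables for MKO (0.11%) and DKO (1.8%) against Ctrl had none. As an alternative run here, with Ctrl 3 and DKO 1 left out, edgeR called Cenpf, Cdc6, Rrm1 and Ccnd3 in TKO against Ctrl. In that setting it called Cenpf, Cdc6, Mcm4 and Rrm1 against DKO, and Cenpf, Cdc6 and Rrm1, but not Bub1b, against MKO. With DKO 1 alone left out, edgeR called Cenpf, Cdc6, Rrm1 and Ccnd3 in TKO against Ctrl. Against DKO and against MKO it then called Cenpf, Cdc6 and Rrm1.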

How the data were processed

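RNA-seq was made from sorted cardiomyocytes of 24 mouse samples, 6 in each of 4 groups, with an amplifying full-length cDNA kit that does not mark strand, per the labels' protocols. The deposited count table holds whole-number reads per gene on mm10, made by the authors with STAR and featureCounts, per the submitters' processing notes; versions are not given in the sources used here. The authors' deposited comparison tables (DESeq2, per the same notes) hold log2 ratios with standard errors and adjusted p-values and were read for values only.

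Counts were fitted with edgeR 4.0.16 (R 4.3.3; limma 3.58.1) (two-sided quasi-likelihood F-test) after TMM scaling and filterByExpr at a minimum count of 10, with all 24 libraries in 1 model; 12281 genes were tested. A gene was called at a Benjamini-Hochberg adjusted p under 0.05 over all tested genes. CPM used TMM-scaled library sizes; totals ran from 5830185 to 17184517 reads, and 3 reads are 0.599 CPM in the shallowest library. Relations across libraries used 100000 permutations. The standard error of an edgeR ratio was taken as its absolute value over the square root of its F statistic. Intervals are at 95% and use the normal quantile, so they are slightly narrower than the F-test would give. Promoters and motif matches came from RefSeq (GRCm38.p6). The fit was tested on simulated data.

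The 40 genes, the lists and the tests were chosen with earlier results of these data known. All 40 genes are accounted for; from the other cell cycle lists the called genes are named, and from the lists of other cells only summed levels and counts. Replicates of a group were compared and none was a repeated deposit. Same-numbered libraries were not treated as paired (see the values on the replicate block). Alternatives were RLE scaling, no filter, DESeq2 1.42.0, a replicate block, sex as a covariate, only the compared groups, 22 libraries without Ctrl 3 and DKO 1, and each library left out in turn. Leaving out DKO 1 and TKO 4 together was added after seeing the data.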

Additional observations from a re-analysis of the deposited data

Results flagged for a closer look

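In a group of 6 libraries, a library was marked when its gap to the nearest of the others exceeded 0.625 of the group's range (Dixon's 95% value). Chance marks about 1 in 20 groups; 10 of the 160 gene-by-group sets (6.25%) were marked. Of these, 4 were Ctrl 2 as the highest library: Kif23 at 13.2 CPM against the next at 5.30 (gap 0.820 of the range), Mcm3 at 30.7 against 17.2 (0.731), Top2a at 40.3 against 20.8 (0.700) and Ccnd1 at 12.5 against 4.69 (0.688). Ctrl 3 was the lowest for Cenpf, at 22.01 against 35.2 CPM (0.697). DKO 1 was the lowest for Mcm4, at 7.39 against 21.5 CPM (0.736), and the highest for Ccnd3, at 120 against 94.98 (0.662). TKO 4 was the lowest for Kif11, at 2.66 against 8.97 CPM (0.788). TKO 6 was the highest for Rrm1, at 50.8 against 35.0 CPM (0.724), and MKO 6 for Mcm6, at 36.9 against 24.004 (0.672). The sums over roles gave none.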

How the results depend on the processing

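The 30 gene ratios followed were those that passed in the main model or, among the 40 genes, in some alternative, so a reversal was unlikely from the start. None reversed: of 957 values under alternatives, 842 stayed on their side of the threshold, 97 lost a call and 18 gained one. Over the 40 genes the number with a ratio below 0 ranged from 11 to 34 in MKO against Ctrl. It ranged from 5 to 31 in DKO against Ctrl and from 34 to 38 in TKO against Ctrl. The count of the 40 genes called was 2 in TKO against Ctrl, DKO and MKO. Leaving out 1 library at a time it ranged from 1 to 4, 1 to 3 and 1 to 3. In TKO against Ctrl it was 1 with no filter on low counts and 4 without Ctrl 3 and DKO 1 together (22 libraries). In TKO against DKO it was 1 with only the compared groups in the model, where Cdc6 was not tested, and 4 without Ctrl 3 and DKO 1. With the replicate block it stayed 2 in each, Cenpf and Cdc6, and the genes called over the table were 1792, 908 and 1834. Deviations of same-numbered libraries correlated over 0.1 in 14 of 36 pairs (median r 0.0722, highest 0.642) and those of other pairs in 45 of 180 (median −0.0236), and 6 of 24 libraries matched their own number best. As not every pair was over 0.1, the numbers are not taken as a pairing, but this rule cannot exclude a link among some of the same-numbered libraries. With sex as a covariate Ccnd3 rose and Cdc6 was not called in TKO against Ctrl.

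Over the whole table, 1734 genes were called in TKO against Ctrl and 1403 to 2808 with 1 library left out (2808 without DKO 1); 784 in TKO against DKO and 495 (without TKO 4) to 1100 with 1 left out, 269 with only the compared groups and 1239 without Ctrl 3 and DKO 1; and 1639 in TKO against MKO, 1184 (without MKO 6) to 2725 (without DKO 1) with 1 left out and 2892 without Ctrl 3 and DKO 1. DKO against Ctrl went from 78 to between 43 and 187, DKO against MKO from 97 to between 48 and 366, and the interaction from 57 to between 14 and 585. The interaction could not be fitted with only the compared groups. The cause of these shifts was not tested.

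With a median standard error of 0.38 on the log2 scale, differences of the size of the median ratio of these genes were not detectable for most of them. Cdc6 rests on 0 to 40 reads a library.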
